A study of Mus musculus with 2 samples.

Results

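B cells of mouse bone marrow in which no UMI of the surrogate light chain genes Vpreb1 and Igll1 was captured were described here and are called B cells without surrogate light chain, 315 of 14142 kept cell barcodes, 301 in the control (Ctrl) library and 14 in the Map4k4 conditional knockout (cKO) library. The cells were selected on measured RNA: a barcode was kept with 200 to 9000 genes, at most 30% mitochondrial UMIs and at least 1000 UMIs, and a kept barcode was taken with at least 2 UMIs of Cd79a, at least 2 UMIs of Ms4a1 and H2-Aa together, 0 UMIs of Vpreb1 and Igll1, and less than 10% of its UMIs from Jchain, Igkc and Igha. These 8 genes chose the cells, so their values are a description. A UMI is a tag that counts 1 captured RNA molecule.

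The study asked how loss of the kinase MAP4K4 affects neutrophil development in marrow, and it made 1 droplet 3′ single-cell library per genotype. Each library mixed 2 parts of c-Kit+ progenitors, enriched with magnetic beads, with 3 parts of whole marrow after lysis of red cells, from mice 13 to 14 weeks old. The cKO mice carried floxed Map4k4 alleles and Mx1-Cre on a C57BL/6 background and were injected with poly I:C. Mx1-Cre is interferon-inducible and acts in blood cells and in other cells that answer interferon, so it is not specific to B cells. The control mice are labelled only as controls, and the methods give them as Mx1-Cre littermates with a notation for the Map4k4 allele that differs from the floxed one. Whether they were also injected, and how many mice made up each library, is not given in the sources used here. With 1 library per genotype there is no replicate check and no test of genotype. Ranges in parentheses are 95% intervals that cover counting error only: exact binomial for shares and ratios, exact Poisson for levels, which are given as summed UMIs of a gene per 1000000 UMIs of the group (CPM).

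A B cell precursor first rearranges its immunoglobulin heavy chain gene and displays the product with the surrogate light chain, which VpreB and λ5 (the products of Vpreb1 and Igll1) form. The surrogate is then lost, and once a true κ or λ light chain is made the cell displays IgM as an immature B cell. It then turns on IgD, the receptors for recirculation and the MHC class II genes that let it present antigen to T cells. Bone marrow holds immature B cells that were made there and mature B cells that have returned from the blood.

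The Ctrl library held 10220 barcodes and 71527701 UMIs, of which 8795 barcodes were kept at a median of 4940 UMIs. The cKO library held 6872 barcodes and 64393950 UMIs, of which 5347 were kept at a median of 8783 UMIs. A total of 3010 barcode names occurred in both libraries. None of the gated B cells shared its name with a gated B cell of the other library. Over 301 pairs of barcodes with the same name the median correlation of their profiles was 0.496, against 0.499 for pairs with neighbouring names.

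Map4k4 itself was read first. It stood at 72.3 CPM (70.3 to 74.3) over the kept Ctrl barcodes and at 64.0 CPM (62.0 to 66.0) over the kept cKO barcodes. In the gated B cells it was at 155 CPM (132 to 182) in Ctrl, from 153 UMIs, and at 116 CPM (57.7 to 207) in cKO, from only 11 UMIs, or 232 CPM (116 to 415) without the deepest of the 14 cells. The intervals of the B cells overlap either way, and a 3′ tag does not show which exons a transcript holds, so these counts check nothing about the genotype labels.

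The gated B cells were 3.42% (3.05 to 3.82) of kept barcodes in Ctrl and 0.262% (0.143 to 0.439) in cKO. That is a 13.1-fold lower share in the cKO library (7.67 to 24.2). Before the immunoglobulin limit there were 308 such cells in Ctrl and 25 in cKO. The log2 share of cKO over Ctrl was then -2.90, against -3.71 with the limit. Early B cells, taken with the same limits on Cd79a and immunoglobulin, at least 2 UMIs of Vpreb1 and Igll1 together and no limit on Ms4a1 and H2-Aa, numbered 163 in Ctrl and 1 in cKO, a 99.1-fold lower share in cKO (17.5 to 3938). Barcodes with at least 10% of UMIs from Jchain, Igkc and Igha, here called immunoglobulin-rich, numbered 85 in Ctrl and 40 in cKO, a ratio of 1.29 (0.877 to 1.93) whose interval includes 1. The shares of a library add up to a whole, and neutrophil-gated barcodes (at least 5% of UMIs from S100a8 and S100a9, no Cd79a) took 52.1% of the Ctrl library and 76.9% of the cKO library. Outside the neutrophil gate the B cells were 7.14% (6.38 to 7.96) of 4213 Ctrl barcodes and 1.14% of 1233 cKO barcodes. Fewer B cells in the marrow and a different catch of cells by each library cannot be told apart with 1 library per genotype.

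**Figure D1:**
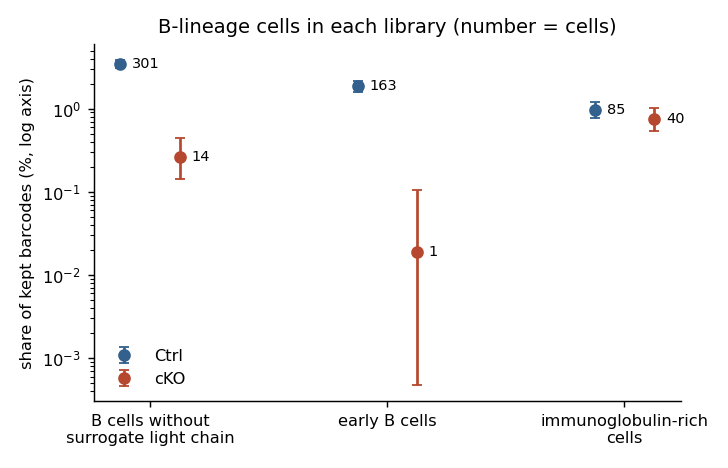
Share of kept barcodes (%, log axis) for B cells without surrogate light chain, early B cells and immunoglobulin-rich cells in Ctrl and cKO; points are libraries, bars are exact 95% binomial intervals and the numbers are cells. The B cells without surrogate light chain stand at 3.42% in Ctrl and 0.262% in cKO, while the intervals of the immunoglobulin-rich cells overlap.

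Of the 666 kept Ctrl barcodes with at least 2 UMIs of Cd79a, 329 also passed the limit on Ms4a1 and H2-Aa, 308 of those had no UMI of Vpreb1 and Igll1 and 301 passed the immunoglobulin limit. Ms4a1 encodes CD20 and H2-Aa the α chain of the class II molecule I-A. A total of 189 of the 301 cells had at least 2 UMIs of Ms4a1 and 238 had at least 2 of H2-Aa, with 130 cells over both limits. Ms4a1 was at 0 in 50 cells and H2-Aa at 0 in 47. A Ctrl cell held 1000, 2508 and 24785 UMIs (lowest, median and highest) and 614, 1228 and 4928 genes. Early B cells were deeper, at a median of 5977 UMIs.

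The edges of the gate were as follows in Ctrl. The 24 cells just inside the limit on Ms4a1 and H2-Aa, with exactly 2 UMIs, had Vpreb3 at 2236 CPM and Cd74 at 1285 CPM. The 24 cells just outside it, with 1 UMI, had Vpreb3 at 995 CPM and Cd74 at 485 CPM. A further 101 cells, with 0 UMIs of both genes, had Vpreb3 at 1768 CPM and Cd74 at 123 CPM. In all, 125 Ctrl cells that met the limits on Cd79a, surrogate light chain and immunoglobulin fell below this limit. They are not among the gated B cells, which are thus not all B cells without a surrogate light chain UMI. Just outside the surrogate light chain limit, the 10 cells with exactly 1 UMI had Cd74 at 2695 CPM, and the 11 cells with 2 or more had Cd74 at 97.0 CPM and Dntt at 212 CPM. The 48 cells with exactly 1 UMI of Cd79a that passed the other limits had Cd74 at 3354 CPM, against 4505 CPM in the 64 cells just inside with 2 UMIs. Pax5 was at 300 and 538 CPM and Ighd at 423 and 784 CPM on these sides, so the cells just outside the Cd79a limit were lower in all 3 genes and still carried them.

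The given label was checked against Pax5 and other B lineage genes that the gate did not use. Pax5, the factor that fixes B lineage commitment, had a UMI in 221 of 301 Ctrl cells, 73.4% (68.1 to 78.3), at a median of 1 and a highest value of 16 UMIs per cell. Cd79b, the partner of Cd79a in the B cell receptor, had a UMI in 290 cells. Cd22, an inhibitory receptor, was seen in 174. Free RNA reaches every droplet, so neutrophil-gated Ctrl barcodes served as background, at a median of 4129 UMIs. There Pax5 was seen in 0.720% of barcodes, Cd79b in 6.09% and Cd22 in 0.742%. After each cell was thinned to 1000 UMIs, Pax5 was seen in 43.2% of the B cells and in 0.240% of the background barcodes. The B label held for the lineage, with or without this thinning.

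The gated B cells stood apart from the rest of the Ctrl library by B lineage and antigen presentation genes. Among all 3758 genes with at least 50 CPM on either side, 6.17% were at least 4-fold higher in the B cells and 1.17% at least 4-fold lower, with a median log2 ratio of 0.13. Of the 20 B identity genes, 19 were at least 4-fold higher, the exception being Cd83, which was under 50 CPM. Outside the genes of the rule, the highest ratios belonged to the low-affinity IgE receptor gene Fcer2a (7.66 on the log2 scale), the IgM receptor gene Fcmr (7.61), Ighd (6.82), Cd22 (6.46) and the BAFF receptor gene Tnfrsf13c (6.32). The lipid desaturase gene Scd1 (6.18), the class II activator gene Ciita (6.06), the scaffold gene Bank1 (6.03) and the Ikaros family gene Ikzf3 (5.71) followed. The lowest ratios were those of the granule protease genes Ctsg (-3.03) and Elane (-2.98), followed by Ms4a3 (-2.88), Nkg7 (-2.81), the protease gene Prtn3 (-2.81) and the peroxidase gene Mpo (-2.54). Jchain, a gene of the rule (-2.35), Emb (-2.28), Ly6c2 (-2.15) and Gstm1 (-2.15) completed the 10 lowest.

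RNA of other cell types was present in the B cells and is given here before the finer comparisons. Neutrophil markers, all 10 of them detected, made up 4.86% of the UMIs of the Ctrl B cells, and S100a9 was the most abundant at 19704 CPM, against 140055 CPM in neutrophil-gated barcodes. S100a8 was found in every Ctrl B cell, at 3, 18 and 1883 UMIs (lowest, median and highest). Erythroid markers made up 0.351%, led by Hbb-bs at 1642 CPM. A single Ctrl cell held 1428 of the 1618 Hbb-bs UMIs, the median cell none, and without that cell Hbb-bs was at 194 CPM and erythroid markers at 0.0881%. Monocyte and macrophage markers made up 0.185%, led by Lyz2. T and NK markers made up 0.00507%, with Cd3e at 0, and stem and progenitor markers 0.00660%, led by Kit. Plasma cell markers made up 0.115%, led by Igha, a gene of the rule. Of the 8 dendritic cell markers only 7 UMIs were found, with Xcr1, Clec9a, Cd209a, Clec10a and Cd300c at 0. A group of 19 Ctrl cells drew at least 10% of their UMIs from these marker lists, had a median of 5811 UMIs, and held 61.2% of the neutrophil marker UMIs and 77.4% of the erythroid marker UMIs of all 301 cells. The remaining cells drew 2.17% of UMIs from neutrophil markers. Doublets were not called.

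**Figure D2:**
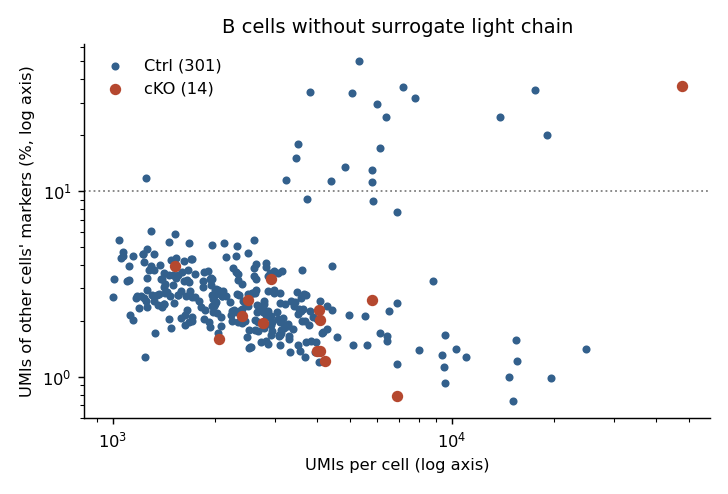
UMIs per cell (log axis) against the share of UMIs from marker genes of other cell types (%, log axis) for the 301 Ctrl and 14 cKO cells; the dotted line marks 10%. Of the Ctrl cells 19 lie at or above the line, and 1 cKO cell with 47701 UMIs stands apart at 36.9%.

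The main comparison was with early B cells of the same library, which differ from the gated cells by the surrogate light chain and, through the rule, by Ms4a1 and H2-Aa. Over all 3949 genes with at least 50 CPM in either group, 3.70% were at least 4-fold higher in the B cells without surrogate light chain and 1.29% at least 4-fold lower, and the median log2 ratio was -0.13. Each ratio below is to be read against that median, and is the level in the gated B cells over the level in early B cells.

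Genes of the MHC class II pathway were higher almost throughout. Class II molecules are pairs of an α and a β chain that are held by the invariant chain (Cd74), loaded by the DM molecules and restrained by the DO molecules. Of 16 listed genes other than H2-Aa, 12 were above 50 CPM in either group, 11 of those were at least 4-fold higher and none lower, and the median log2 ratio was 3.91. Since H2-Aa helped choose the cells, the direction of its partner genes is not independent of the rule.

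The promoters of H2-Aa, of the β chain gene H2-Eb1 and of the DM chain gene H2-DMb2 are shown because their genes had the class II pattern and share a sequence element, the Y box, which the factor NF-Y is known to bind. The RefSeq sequences are the 150 bases before the annotated start on the gene's strand in GRCm38.p6, at chr17:34287824-34287973 (minus strand) for H2-Aa, chr17:34305717-34305866 (plus strand) for H2-Eb1 and chr17:34145099-34145248 (plus strand) for H2-DMb2. The capitals mark the letters TGATTGG.
H2-Aa: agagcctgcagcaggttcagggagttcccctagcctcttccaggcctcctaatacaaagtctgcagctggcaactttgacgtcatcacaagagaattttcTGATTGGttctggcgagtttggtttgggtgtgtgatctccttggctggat
H2-Eb1: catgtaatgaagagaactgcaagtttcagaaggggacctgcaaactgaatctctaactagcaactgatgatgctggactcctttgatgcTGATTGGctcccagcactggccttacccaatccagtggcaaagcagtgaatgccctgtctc
H2-DMb2: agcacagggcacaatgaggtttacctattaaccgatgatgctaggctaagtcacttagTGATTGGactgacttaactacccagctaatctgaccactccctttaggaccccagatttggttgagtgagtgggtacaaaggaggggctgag
The first letter of the element lies at base -50, -61 and -92 from the start, respectively. The motif letters were set after the sequences were seen. On either strand (TGATTGG or CCAATCA), 8 of 15 windows of 300 bases from 13 class II pathway genes held it, a count that includes the 3 promoters shown. Without those it was 5 of 12 windows, or 41.7%. The share over all 32851 windows of 27025 genes was 7.82%. With letters chosen on these genes, the counts are a description and not a test. A match is a description of the sequence and not a measured binding site.

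Cd74 was at 4407 CPM (4277 to 4540) in the gated B cells and at 40.9 CPM (31.1 to 52.7) in early B cells, a log2 ratio of 6.75 (6.38 to 7.15). It had 0, 12 and 163 UMIs per gated cell (lowest, median and highest), and 291 of 301 cells had at least 1 UMI, against 35 of 163 early B cells. In the neutrophil background 8.71% of barcodes had a Cd74 UMI, at 26.9 CPM, so the level in early B cells was close to the background and that in the gated B cells far above it.

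H2-Eb1 stood at 1153 CPM against 13.2 CPM (log2 ratio 6.45, 5.80 to 7.19) and H2-Ab1, the β chain gene of I-A, at 1115 against 58.9 CPM (4.24, 3.92 to 4.58). H2-DMb2 stood at 259 against 2.08 CPM, the latter from 3 UMIs (6.96, 5.40 to 9.25). Ciita, whose product switches the class II genes on, stood at 235 against 6.23 CPM (5.24, 4.29 to 6.39). The DO genes H2-Oa and H2-Ob had log2 ratios of 2.57 and 3.46. The lysosomal reductase gene Ifi30 had a ratio of 2.84, and the protease gene Ctss, at 226 against 70.0 CPM, was the only gene above 50 CPM that did not reach 4-fold (1.69). Rfx5, Rfxap and Rfxank, whose products bind class II promoters, were below 50 CPM in both groups, with Rfxank at 14.2 and 14.5 CPM.

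Per cell, the 16 class II pathway genes took 0.0291%, 1.13% and 2.81% of UMIs (lowest, median and highest) of the gated B cells and 0%, 0.0366% and 0.175% of early B cells. The 18 precursor genes took a median of 0.0890% in the gated B cells and 0.811% in early B cells. The ranges of the groups overlap on both lists, so a part of the gated cells lay among the early B cells on these measures.

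**Figure D3:**
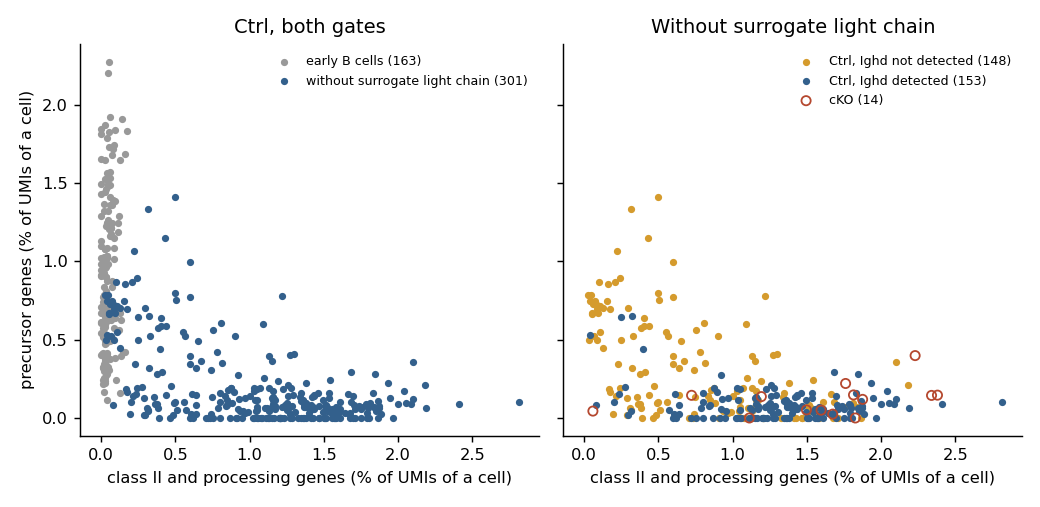
Share of a cell's UMIs (%) from class II pathway genes other than H2-Aa (x axis) and from precursor genes (y axis); each point is 1 cell. Left, early B cells (163) hold at most 0.175% of class II UMIs while the B cells without surrogate light chain (301) reach 2.81%; right, the latter by Ighd detection, with the 14 cKO cells as rings.

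**Figure D4:**
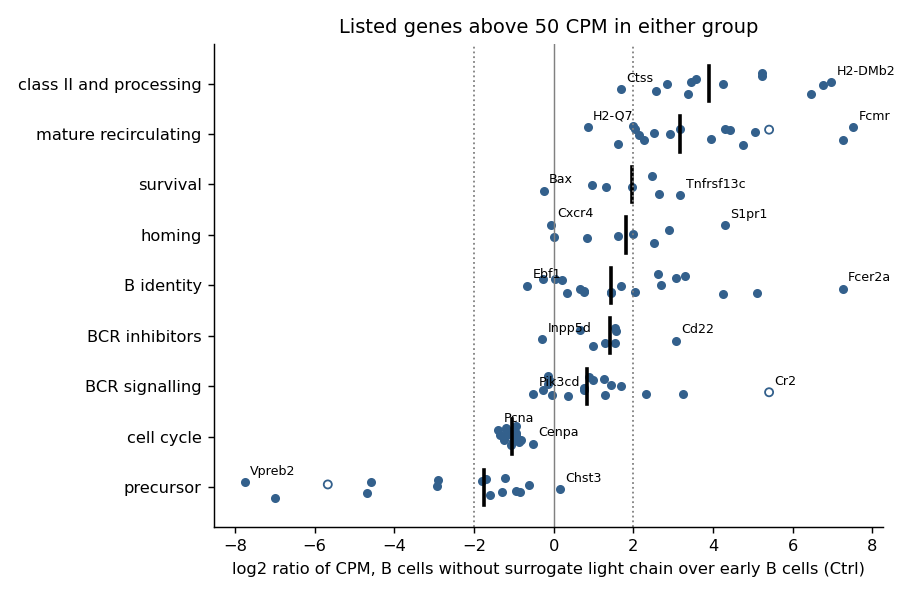
Log2 ratio of CPM, B cells without surrogate light chain over early B cells in Ctrl, for each listed gene with at least 50 CPM in either group (points), by gene list. Class II pathway and mature recirculating genes lie mostly above 2 (4-fold), and precursor genes mostly below 0.

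Genes of recirculating mature B cells formed the second group that was higher. Of 18 listed genes, 17 were above 50 CPM in either group, 14 were at least 4-fold higher and none lower, with a median log2 ratio of 3.17. Fcmr stood at 381 against 2.08 CPM (7.52, 5.96 to 9.80) and Fcer2a at 212 against 1.39 CPM (7.26, 5.39 to 10.31), with 3 and 2 UMIs in early B cells. The complement receptor gene Cr2 stood at 88.3 CPM and had no UMI in early B cells. Against the 3 UMIs over the group that a count of 0 allows, its log2 ratio was 5.41, which leaves out the counting error of its own UMIs. Cd55, which shields cells from complement, stood at 395 against 11.8 CPM (5.07). The egress receptor gene S1pr1 stood at 177 CPM with a ratio of 4.29, and its regulator Klf2 at 461 against 94.9 CPM (2.28). Ccr7 (1.98) and Cxcr5 (1.62), which guide cells to lymphoid tissue, and H2-Q7 (0.85) did not reach 4-fold.

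Ighd, the heavy chain of IgD, stood at 700 CPM (649 to 755) against 32.6 CPM (23.9 to 43.3), a log2 ratio of 4.43. Zfp318, which is needed for IgD expression, stood at 205 against 7.62 CPM (4.75). A total of 206 Ctrl cells had an Ighd UMI, at 0, 2 and 11 UMIs per cell (lowest, median and highest), against 1.77% of neutrophil-gated barcodes.

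Precursor genes were lower as a group, and their members were unequal. Of 18 listed genes, 16 were above 50 CPM in either group, 7 were at least 4-fold lower and none higher, with a median log2 ratio of -1.74. Dntt, the polymerase that adds bases at heavy chain joins, stood at 4.06 against 517 CPM (-6.99, -8.87 to -5.63). Vpreb2, a further surrogate light chain gene that was not part of the rule and is a near copy of Vpreb1, stood at 1.01 against 220 CPM (-7.76), and reads of such copies may be split between them. The recombinase gene Rag1 stood at 11.2 against 83.1 CPM (-2.90), and 12 of 301 cells had a UMI of Rag1 or Rag2. Lef1 stood at 20.3 against 485 CPM (-4.58, -5.30 to -3.94). Arpp21 had no UMI against 155 CPM. Others were lower by less than 4-fold: Il7r, the interleukin 7 receptor, at 69.0 against 239 CPM (-1.79), Sox4 at 194 against 477 CPM (-1.30), Myb at 180 against 582 CPM (-1.70) and Cd93 at 83.2 against 251 CPM (-1.59). Over 22 alternatives the ratio of Il7r lay between -4.52 and -1.01 and that of Sox4 between -2.37 and -0.76. Both thus passed 4-fold in some of them. Chst3 was at 215 and 192 CPM, with overlapping intervals.

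Vpreb3, which encodes a chaperone of the assembling receptor and is not a part of the surrogate light chain itself, stood at 712 CPM (660 to 766) over the gated cells against 1651 CPM (1586 to 1719), a log2 ratio of -1.21 (-1.34 to -1.09). It was carried by a part of the cells: 140 of the 301 gated cells had a UMI, at 0, 0 and 38 UMIs per cell (lowest, median and highest), against 162 of 163 early B cells, at 0, 14 and 50. Over 22 alternatives the ratio lay between -2.12 and -0.92. Its promoter is shown because it was the only 1 of 15 precursor genes in the sequence table whose promoter held an octamer, the element that the factors OCT1 and OCT2 are known to bind at immunoglobulin genes. The sequence, at chr10:75948150-75948299 on the plus strand of GRCm38.p6, has the letters ATTTGCAT in capitals, the first at base -45.
Vpreb3: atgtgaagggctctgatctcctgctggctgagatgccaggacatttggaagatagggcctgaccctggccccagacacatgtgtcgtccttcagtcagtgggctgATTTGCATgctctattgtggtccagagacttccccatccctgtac
The octamer, on either strand (ATTTGCAT or ATGCAAAT), was in 1 of 28 windows of 15 precursor genes and in 1.74% of all windows. It was also in 1 of 18 windows of the B identity genes. Other motifs were looked for as well, so these counts are a description and not a test. The match is not a measured binding site.

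B identity genes were mostly at like or higher levels than in early B cells. Of 20 listed genes, 8 were at least 4-fold higher and none lower, with a median of 1.44. Pax5 stood at 550 against 438 CPM (0.33, 0.16 to 0.50), Pou2af1 at 280 against 274 CPM and Ebf1, the factor that starts the B program, at 979 against 1549 CPM (-0.66, -0.77 to -0.55). Fcer2a, named above, had the highest ratio, and Cd22 is given below. The others past 4-fold were Ly6d at 952 against 49.9 CPM (4.25, 3.91 to 4.62), Bank1 at 382 against 11.1 CPM (5.11), Pou2f2, which encodes OCT2, at 582 against 59.6 CPM (3.29), Ralgps2 at 498 against 77.6 CPM (2.68), Ikzf3 at 300 against 48.5 CPM (2.63) and Spib at 379 against 91.4 CPM (2.05).

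The B cell receptor's signalling chain was largely present in both groups. Of 18 signalling genes, all above 50 CPM in either group, 3 were at least 4-fold higher and none lower, with a median of 0.83. They included Cr2 and Malt1, which leads from the receptor to NF-κB and stood at 258 against 51.9 CPM (2.31). The kinase genes Syk (468 against 191 CPM) and Lyn (289 against 106 CPM) had ratios of 1.29 and 1.45, and the kinase gene Btk (-0.14) and the adaptor gene Blnk (-0.27) were near equal. Of 10 inhibitors of the receptor, Cd22, at 304 against 36.0 CPM (3.08, 2.65 to 3.53), was at least 4-fold higher. Siglecg (1.54), Fcgr2b (1.57) and the phosphatase gene Ptpn6 (1.29) were higher by less, and the median of the 8 above 50 CPM was 1.41.

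Survival and homing genes, some of which are also on the list of mature genes, gave fewer calls. Of 15 survival genes 3 were at least 4-fold higher: the BAFF receptor gene Tnfrsf13c at 350 against 38.8 CPM (3.17), Bcl2 at 96.4 against 17.3 CPM (2.48) and Birc3 at 135 against 21.5 CPM (2.65). Mcl1 (1.32) and the TACI gene Tnfrsf13b (0.97) were higher by less, and the death gene Bax was at 68.0 and 81.0 CPM. Of 11 homing genes 3 were at least 4-fold higher, among them S1pr1 and the integrin gene Itgb7 at 77.1 against 10.4 CPM (2.89), with a median of 1.80 over the 8 above 50 CPM. The marrow retention receptor gene Cxcr4 was at 91.3 and 94.9 CPM and the integrin gene Itga4 at 284 in both.

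Few markers of germinal centre, plasma, B1, marginal zone and age-associated B cells reached 50 CPM. Of the 10 germinal centre and plasma genes 3 were above 50 CPM in the gated or early B cells, as were 3 of the 11 genes of the other subsets, and none of those passed 4-fold in either direction. Mzb1, a chaperone of antibody-making cells, stood at 162 against 349 CPM in early B cells (-1.10) and the factor gene Irf4 at 74.1 against 116 CPM (-0.65). Against the rest of the Ctrl library both were at least 4-fold higher, Irf4 by 3.21 and Mzb1 by 2.76 on the log2 scale. Prdm1, the plasma cell regulator, had 2 UMIs in all 301 cells, against 131 CPM in the immunoglobulin-rich barcodes. Xbp1 was at 57.9 CPM, against 1164 CPM in the immunoglobulin-rich barcodes. In neutrophil-gated barcodes it was at 105 CPM, above the B cells, so that level is no measure of its free RNA. Cd5 had 1 UMI, Zbtb32 7 and Fcrl5 6.

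Beyond the lists, the highest ratio among genes with at least 200 CPM in either group that is not named above was that of Btla, an inhibitory receptor, at 203 against 2.08 CPM (6.61). The lowest included Myl10 at 5.07 against 249 CPM (-5.61), Cplx2 at 44.7 against 406 CPM (-3.18), Tspan13 at 89.3 against 461 CPM (-2.37), Pde2a at 74.1 against 396 CPM (-2.42) and Atp1b3 at 70.0 against 321 CPM (-2.20). The neutrophil markers had a median ratio of 0.80 with none past 4-fold. Of 8 erythroid markers 2 were at least 4-fold higher in the gated cells, with a median of 1.64, but their share of UMIs was 0.0881% without the cell richest in Hbb-bs and 0.0918% in early B cells. The part of other cells' RNA in the ratios of B lineage genes was not tested. Without the 19 cells rich in such RNA the log2 ratio of Cd74 was 6.86, that of H2-Eb1 6.57 and that of Vpreb3 -1.04, and the medians of the class II pathway and precursor lists were 4.03 and -1.58.

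Ighm, the heavy chain of IgM, had a UMI in 299 of 301 cells, at 0, 10 and 84 UMIs per cell (lowest, median and highest) and 4079 CPM against 1777 CPM in early B cells. Of 10 constant region genes outside the rule, 5 were above 50 CPM in either group and 4 of these, Ighd and the λ genes, were at least 4-fold higher, with a median ratio of 4.43. Iglc1 stood at 594 against 42.3 CPM, Iglc2 at 668 against 13.2 CPM and Iglc3 at 487 against 6.93 CPM. Iglc2 and Iglc3 are near-identical copies, so the split between them is uncertain. Igkc, a gene of the rule, was at 6127 CPM, at 0, 17 and 96 UMIs per cell. An Igkc UMI was found in 296 of the 301 cells, 98.3% (96.2 to 99.5). It was also found in 88.3% of neutrophil-gated barcodes, which were deeper and where Igkc stood at 546 CPM. Detection was thus common in both, and the level was far higher in the B cells.

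Each B cell is known to use 1 light chain type, and κ is the common one in mice. Igkc exceeded the sum of Iglc1, Iglc2 and Iglc3 in 270 of 301 Ctrl cells, 89.7% (85.7 to 92.9), the λ sum exceeded Igkc in 29, 9.63% (6.55 to 13.5), and 2 were equal. In the 29 λ-high cells Iglc1 stood at 4019 CPM and Igkc at 2140 CPM. In the 270 κ-high cells Igkc stood at 6444 CPM, Iglc1 at 335 CPM, Iglc2 at 587 CPM and Iglc3 at 435 CPM. The same UMIs made the split, so these levels are a description and no finding. Both types reached 3 UMIs in 181 cells, 60.1%. A λ UMI was found in 271 of the 301 cells and in 26.1% of neutrophil-gated barcodes, and the part of free RNA in the mixed cells was not tested. A clear excess, 3 or more UMIs of a type and at least 5 times the other, was met for κ by 144 cells and for λ by 13.

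RNA of switched isotypes was also found in the background. Igha, the heavy chain of IgA and a gene of the rule, had a UMI in 249 of 301 cells, 82.7%, and in 84.5% of neutrophil-gated barcodes, which were deeper. At equal depth, after thinning to 1000 UMIs, the shares were 55.5% (49.7 to 61.2) and 39.0% (37.6 to 40.5), and its level was 709 CPM (658 to 764) against 417 CPM (410 to 425). As a share of UMIs Igha was thus above the background, by less than 2-fold. In raw counts there were 699 UMIs over the 301 cells and 11610 UMIs over the 4582 neutrophil-gated barcodes. The part of free RNA in the Igha level of the shallower B cells was not tested. Ighg1 had 4 UMIs and Ighg3 2 in all 301 cells.

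Variable region genes are read poorly by a 3′ tag. A UMI of any of 185 Ighv genes was found in 62 Ctrl cells, of which 60 showed a single gene, and 37 different genes were seen. A UMI of any of 160 Igkv genes was found in 64 cells, 55 of them with a single gene, over 38 genes. The most widespread were Ighv1-26 and Ighv5-4, in 5 cells each, and Igkv19-93, in 9 cells. The λ genes Iglv1 and Iglv3 were seen in 8 and 6 cells. No variable gene was seen in more than 9 of the 301 cells. Most cells had no such UMI, 239 for Ighv and 237 for Igkv, so the make-up of the population cannot be read from these counts. The part of free RNA in them was not tested.

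The gated B cells were not uniform, and IgD was used to order them. After thinning to 1000 UMIs, Ighd was seen in 153 of 301 Ctrl cells, 50.8% (45.0 to 56.6), against 0.611% of the neutrophil background. The 153 cells had a median of 2340 UMIs and the 148 others 2705. A cell without an Ighd UMI at this depth may still express it, and 53 of the 148 had an Ighd UMI before thinning. Of 3778 genes with at least 50 CPM on either side, 3.73% were at least 2-fold higher with Ighd and 6.54% at least 2-fold lower, with a median of -0.01.

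Class II pathway genes went with Ighd. Of the 16 genes, 8 were at least 2-fold higher with Ighd and none lower, with a median of 1.11. H2-Eb1 stood at 1723 against 745 CPM (1.21, 1.03 to 1.39), Cd74 at 5957 against 3298 CPM (0.85, 0.77 to 0.94) and Ciita at 370 against 139 CPM (1.41, 1.01 to 1.82). In thinned cells an H2-Eb1 UMI was seen in 126 of the 153 cells with Ighd and in 64 of the 148 without. The 2 sides overlapped per cell, with class II shares of 0.0406% to 2.81% with Ighd and 0.0291% to 2.18% without, around medians of 1.34% and 0.737%.

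Mature recirculating genes went the same way. Of 18 genes 6 were at least 2-fold higher and none lower, a count that includes Ighd itself, with a median of 0.65. Fcer2a stood at 370 against 99.3 CPM (1.90, 1.45 to 2.36), Cr2 at 165 against 33.1 CPM (2.32) and Zfp318 at 324 against 120 CPM (1.43). Fcmr stood at 504 against 293 CPM by summed UMIs, yet in thinned cells it was seen in 45 of 153 and 44 of 148 cells, so no difference in its share was detectable. The 10 highest ratios among genes with at least 200 CPM on either side also included Car2 (1.99), which is on the erythroid marker list, and Klf3 (1.76), which is on no list. The naming rule did not cover this comparison, and both were named after their values were seen.

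Precursor genes went the other way. Of 18 genes 7 were at least 2-fold lower with Ighd and none higher, with a median of -2.33. Vpreb3 stood at 221 against 1062 CPM (-2.26, -2.60 to -1.94), and in thinned cells it was seen in 21 of 153, 13.7% (8.70 to 20.2), against 72 of 148, 48.6% (40.4 to 57.0). Sox4 stood at 36.5 against 306 CPM (-3.07) and Cd93, a marker of immature B cells, at 21.9 against 127 CPM (-2.54). Il7r stood at 2.43 CPM, from 1 UMI, against 117 CPM (-5.58, -10.91 to -3.06). Pax5, at 518 and 573 CPM (-0.14, -0.40 to 0.11), and Ebf1, at 998 and 966 CPM, had intervals of the ratio that include 0.

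Cell cycle genes were also lower with Ighd, 13 of 18 by at least 2-fold, with a median of -1.15 and Mki67 at 316 against 980 CPM. The median cell had 0.226% of its UMIs from these genes on both sides. The cycle-rich cells described next lay mostly without Ighd, and leaving them out gave a list median of -0.52. Other cells' RNA moved with the same split. Neutrophil markers were 3.63% of UMIs with Ighd and 5.74% without, and erythroid markers 0.124% and 0.513%. The erythroid difference was that of 1 cell, which held 1428 of the 1514 Hbb-bs UMIs on the side without Ighd. Without it that side had 0.0619% of erythroid UMIs and Hbb-bs at 151 CPM, below the 253 CPM with Ighd. The part of this RNA in the ratios was not tested.

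**Figure D5:**
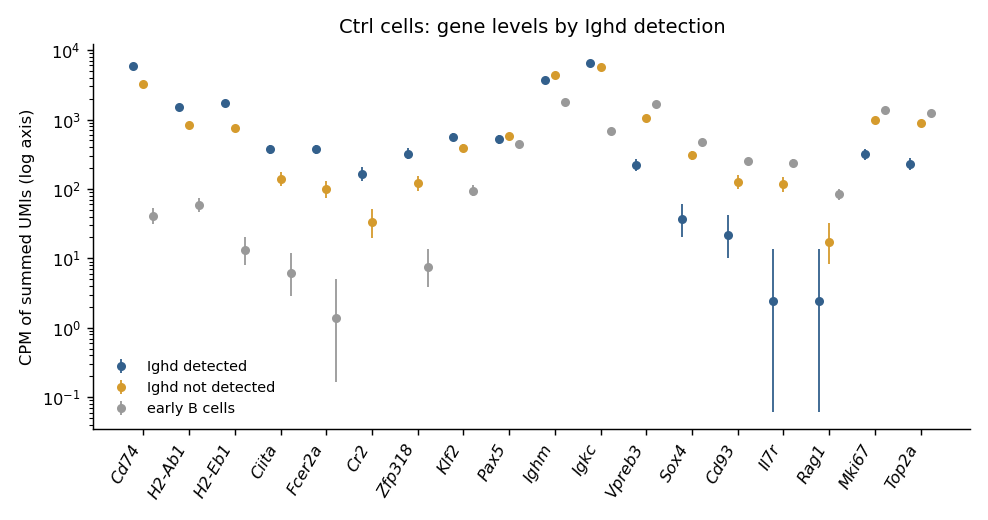
CPM of summed UMIs (log axis) of 18 genes in Ctrl B cells without surrogate light chain with an Ighd UMI after thinning (153), without one (148), and in early B cells (163); bars are exact 95% Poisson intervals. Cd74, H2-Ab1, H2-Eb1 and Fcer2a are highest with Ighd, Vpreb3, Sox4, Cd93 and Il7r are highest in early B cells, and Pax5 is near level.

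A small set of the cells was cycling by its RNA. At least 10 of 1000 thinned UMIs came from the 18 cell cycle genes in 25 Ctrl cells, a limit set after the values were seen on a score that runs without a break: the median cell had 2 and the highest 41, 13 cells lay at 6 to 9 and 4 at 10 to 14. Early B cells met the limit in 86 of 163. The 25 cells were deep, at a median of 6902 UMIs. Of 4047 genes, 6.10% were at least 4-fold higher in them than in the other 276 cells and 2.87% at least 4-fold lower. The 13 cell cycle genes among the higher are a result of the limit.

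In these cycle-rich cells, mature recirculating genes were lower, 7 of 18 by at least 4-fold and none higher (median -1.72), as were 4 of 16 class II pathway genes (median -1.71). Neutrophil markers were 4.39% of UMIs in them and 5.01% in the other 276. Erythroid markers were 0.0973% against 0.431%, or against 0.0851% without the cell richest in Hbb-bs. Cd74 stood at 1714 against 5257 CPM (-1.62, -1.77 to -1.47) and Fcer2a at 25.4 against 271 CPM (-3.42, -4.88 to -2.27). Precursor genes leaned higher, 2 of 18 by at least 4-fold and none lower (median 1.26), with Il7r at 199 CPM and a ratio of 2.83, and Vpreb3 at 1117 against 583 CPM (0.94). A Vpreb3 UMI was found in 23 of the 25 cells and a Pax5 UMI in 22, while 3 had Ighd after thinning. The level of Pax5 was lower, at 368 against 608 CPM (-0.72, -1.07 to -0.39), and of 19 B identity genes above 50 CPM 4 were at least 4-fold lower and none higher (median -0.92). After thinning a Cd74 UMI was seen in 15 of the 25 cells and in 261 of the other 276. Over all 301 cells, none of the 18 cell cycle genes was 4-fold higher or lower than in early B cells, and their median ratio was -1.04. That median lay between -1.83 and -0.43 over 22 alternatives, and the ratio of Mki67 between -2.10 and -0.03.

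The cKO library held 14 of these B cells, with 1528, 4036.5 and 47701 UMIs (lowest, median and highest). The deepest cell carried 50.2% of the UMIs of all 14 and drew 36.9% of its own from markers of other cells, including 5624 UMIs of S100a8 and 2497 of Camp, with H2-Aa at 0. The gene comparisons are therefore given with it and without it. Per cell, in order of depth, Cd74 had 8, 29, 21, 39, 40, 20, 43, 34, 33, 39, 42, 44, 39 and 17 UMIs, and Pax5 had 2, 0, 1, 1, 2, 3, 1, 0, 4, 1, 4, 2, 3 and 4. All 14 cells carried Cd74 and Cd79b, and 12 carried Pax5. The deepest cell held RNA of B cells and of neutrophils side by side, and since doublets were not called the B label is not settled for it. A Pax5 UMI was found in 0.0486% of cKO neutrophil-gated barcodes.

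Among 3788 genes, 8.03% were at least 2-fold higher in the 14 cKO cells than in the 301 Ctrl cells and 22.6% at least 2-fold lower, with a median log2 ratio of -0.33. Without the deepest cell 15.2% of 4018 genes were higher and 13.5% lower, with a median of 0.15. The highest ratios with all 14 cells were those of granulocyte genes, Fcnb (3.14), Ms4a3 (2.89) and Elane (2.83), together with Tmed3 (3.02) and Clec4a2 (2.74). Without the deepest cell Elane was at -1.13 and Fcnb at -1.47. The neutrophil list went from 6 higher and 3 lower of 10 (median 1.86) to 0 higher and 10 lower (median -1.38). That direction thus rested on 1 cell. The Ctrl side kept its 19 cells rich in such RNA there, and with cells at 10% or more left out of both libraries the median was -0.33.

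The class II pathway had 1 gene higher and 2 lower of 16 by 2-fold with all 14 cells (median -0.08), and 6 higher and 1 lower without the deepest (median 0.88). Cd74 stood at 4711 CPM with all 14 cells and 9094 CPM without the deepest, against 4407 CPM in Ctrl. Mature recirculating genes had 1 higher and 3 lower of 18 (median -0.35), and without the deepest cell 5 higher and none lower (median 0.65). Fcer2a stood at 263 CPM, or 527 CPM without the deepest, against 212 CPM, and Ighd at 536 CPM, or 1076 CPM, against 700 CPM. Of 18 precursor genes 9 could be called. Of these 7 were lower with all cells (median -1.40) and 4 without the deepest (median -0.99), and none was higher, though the intervals of single genes were wide. Vpreb3 stood at 326 or 359 CPM against 712 CPM, with log2 ratios of -1.13 (-1.69 to -0.61) and -0.99 (-1.78 to -0.30).

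Cell cycle genes were lower by 2-fold for 7 of 18 with 1 higher (median -0.82), and for 11 of 18 with none higher without the deepest cell (median -2.08). The Ctrl level rested on few cells, since the 25 cycle-rich cells held 5022 of its 7130 UMIs of these genes. The list took 0.724% of UMIs in all 301 Ctrl cells and 0.281% in the 276 others, against 0.554% in the 14 cKO cells and 0.137% without the deepest. Against the 276 cells the cKO side was thus higher with its deepest cell and lower without it. None of the 14 cKO cells reached 10 of 1000 UMIs from the cell cycle list, the highest having 6. After thinning, Ighd was seen in 8 of 14 cKO cells, 57.1% (28.9 to 82.3), an interval that holds the Ctrl share of 50.8%. The λ sum exceeded Igkc in 3 of the 14 cells, 21.4% (4.66 to 50.8), which likewise includes the Ctrl share. Without the deepest cell the shares were 61.5% (31.6 to 86.1) and 23.1% (5.04 to 53.8). With so few cells no difference in either share was detectable.

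Some of the lowest genes in the cKO cells also differed between the neutrophil-gated barcodes of the libraries. Igha stood at 21.0 CPM against 709 CPM in Ctrl (-5.08, or -5.07 without the deepest cKO cell), and in the neutrophil background at 16.8 CPM in cKO and 417 CPM in Ctrl. Hbb-bs stood at 10.5 CPM, from 1 UMI, against 1642 CPM (-7.29, or -6.28 without the deepest cKO cell). The Ctrl level rested on 1 cell, and without that cell it was 194 CPM. In neutrophil-gated barcodes Hbb-bs was at 16.7 CPM in cKO and 380 CPM in Ctrl. Of 8 erythroid markers 5 were lower by 2-fold, and 4 without the deepest cKO cell. Hba-a1 (-6.08) and Hba-a2 (-6.00) were the next lowest with all 14 cells, and for each a single Ctrl cell held most of the Ctrl UMIs, 546 of 700 and 410 of 662.

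The fourth lowest with all 14 cells was the histone gene Hist1h1b at 21.0 against 849 CPM (-5.33). In neutrophil-gated barcodes it was at 286 CPM in cKO and 361 CPM in Ctrl. The cKO value there lay above that of the cKO B cells, so it is no measure of free RNA. Without the deepest cell the histone gene Hist1h2ae (-4.73) and the tubulin regulator gene Stmn1 (-4.39) were also among the 5 lowest. In neutrophil-gated barcodes of cKO and Ctrl, Hist1h2ae was at 187 and 217 CPM and Stmn1 at 364 and 438 CPM. Without the deepest cell both genes were at 21.1 CPM in the cKO B cells, so these levels are no measure of free RNA either. With all 14 cells Stmn1 stood at 221 against 442 CPM. The cycle-rich cells held most of the Ctrl UMIs of these genes, 769 of 836 for Hist1h1b, 510 of 550 for Hist1h2ae and 314 of 435 for Stmn1.

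Without the deepest cell the highest ratio among genes with at least 200 CPM on either side was that of Iglc1, at 2827 CPM against 594 CPM (2.25, 1.97 to 2.52). One cell held 77 of its 134 UMIs and the 3 λ-high cells 119, while the median of the 13 cells was 1 UMI. Without that cell Iglc1 was at 1408 CPM. Gpr183, a guidance receptor of B cells, stood at 211 against 49.7 CPM (2.08), from 10 UMIs. Rassf4 (2.03), Rnf145 (2.00) and Sys1 (1.96) followed, from 11, 11 and 17 UMIs. The part of free RNA in the ratios of cKO against Ctrl was not tested.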

How the data were processed

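The deposited files hold raw UMI counts per gene and barcode, which the authors made with Cell Ranger 5.0.0 on mm10, per the submitters' processing notes. The authors' limits on genes and mitochondrial share were applied, with a floor of 1000 UMIs added. The authors' doublet removal was not rerun. The cells, gene lists, folds and comparisons were chosen with earlier results of these data known. UMIs were summed over the cells of a group and given as CPM. Log2 ratios carry the exact binomial interval of both sums, and shares carry the Clopper-Pearson interval, at 95%. Genes needed 50 CPM in either group. Calls were 4-fold within Ctrl and 2-fold for the Ighd split and for cKO against Ctrl, where 10 UMIs over both were also required. A count of 0 was read as allowing 3 UMIs. Thinning to 1000 UMIs used seed 1. Named genes were those of the lists, some of which are counted but not reported here by name, and beyond them the 10 highest and 10 lowest ratios against early B cells and against the rest, and the 5 highest and 5 lowest of cKO against Ctrl, at 200 CPM or more. Promoters came from a RefSeq table of GRCm38.p6, in which Ms4a1, H2-Ab1 and Ciita were not found. The alternatives changed the gate, the depth floor, the mitochondrial limit, the treatment of other cells' RNA, the CPM floor and the weighting of cells. The software was scipy 1.17.1, numpy 2.4.6, pandas 2.3.3 and matplotlib 3.10.9 under Python 3.11.15, and the interval and fold steps were tested on simulated data.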

Additional observations from a re-analysis of the deposited data

How the results depend on the processing

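The shares, the light chain types and the gene comparisons were recomputed under 15 to 22 alternatives each, where a value could be had, and the Ighd and cell cycle splits under 5 and 4 that were chosen after seeing the data. Of 1181 values 906 stayed within the counting interval of the reported value or within 1.5 times a count, 264 moved outside, and 11 that had passed the fold changed sign. Over 22 alternatives the log2 ratio of Cd74 against early B cells lay between 6.56 and 7.30 and the median of the class II pathway genes between 3.32 and 4.74. The medians of the mature and precursor lists lay between 3.04 and 3.96 and between -3.40 and -1.11. The log2 share of cKO over Ctrl (-3.71) was -2.90 with no immunoglobulin limit and -2.65 outside the neutrophil gate. Over 16 alternatives the Ctrl share (3.42%) lay between 0.875% and 3.97% and the cKO share (0.262%) between 0.112% and 0.468%, both lowest without cells with at least 2% of other cells' markers. The Ctrl share was 2.15% with Ms4a1 alone.

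The counts of genes past a fold were less stable. Against early B cells (146 higher, 51 lower) the lower count was 113 with Ms4a1 alone, 80 with the gate set after thinning, 145 without cells above 3 times the median UMIs, 152 without cycle-rich cells in both groups and 125 when each cell weighed equally. With 20 CPM as the floor there were 242 higher and 132 lower, and with 200 CPM 53 and 10. Against the rest (232 higher, 44 lower) the lower count was 101 with Ms4a1 alone, 115 with thinning, 187 and 161 without cells with at least 2% and 10% of other cells' markers, 102 without the deep cells and 206 with equal weights, and the floors gave 353 and 113, then 82 and 14. For cKO against Ctrl (304 higher, 856 lower) the higher count was 616 with H2-Aa alone, 93 with no immunoglobulin limit, 534 with thinning, 933 at 2%, 587 at 10%, 590 without the deep cells and 606 with equal weights. The lower count was 1599 with no immunoglobulin limit, 413 at 2%, 556 at 10% and 517 without the deep cells, and the floors gave 573 and 1602, then 71 and 136. For the Ighd split (141 higher, 247 lower) the lower count was 152 without cycle-rich cells, and the floors gave 428 and 634, then 24 and 61. For cycle-rich against other cells (247 higher, 116 lower) they gave 414 and 260, then 81 and 31.

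The Ighd share in Ctrl (50.8%) was 59.7% with H2-Aa alone and 42.9% at 2%, and the λ share (9.63%) was 6.49% at 2%, which removed 224 of 301 Ctrl cells. The median of the neutrophil list in cKO against Ctrl (1.86) was -1.24 with H2-Aa alone, -0.67 with thinning, -0.24 at 2%, -0.33 at 10% and -1.19 without the deep cells, and the ratio of S100a8 (2.02) was -1.24, -0.53, -0.14, -0.17 and -1.13. Except for thinning, these settings leave the deepest cKO cell out by construction, and the cause under thinning was not tested. The ratio of Igha (-5.08) was 0.67 with no immunoglobulin limit, which admits immunoglobulin-rich cells. The cKO against Ctrl median of the class II genes (-0.08) lay between -0.84 and 1.03 over 21 alternatives, 11 of them with its sign. That of the mature recirculating genes (-0.35) lay between -1.73 and 0.58, 15 of the 21 with its sign. The alternatives at 10%, without cycle-rich cells and outside the neutrophil gate were chosen after seeing the data. The Ighd share could not be given with no floor of 1000 UMIs, since thinning needs that depth. No paired analysis was possible because the libraries share only replicate number 1. The small number of cKO cells limits what they show: a gene at 0 in all 14 may stand at up to 31.5 CPM, and at up to 63.3 CPM without the deepest.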

Other observations

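A few gene lists belong to no comparison above. Of 13 interferon response genes in the files, 3 were above 50 CPM in the gated Ctrl B cells or in early B cells and none differed by 4-fold. They included Ifi27l2a at 414 against 150 CPM (log2 ratio 1.47) and Bst2 at 54.8 against 51.3 CPM (0.10). In the cKO cells Ifi27l2a was at 273 CPM, or 527 CPM without the deepest cell, so its place below or above the Ctrl level turned on 1 cell.

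Of the 7 kinase genes of the MAP4K family, Map4k1, Map4k2 and Map4k4 were above 50 CPM. Map4k1 was at 113 CPM in the gated Ctrl B cells and 59.6 CPM in early B cells (0.92), and Map4k2 at 159 and 149 CPM (0.10). Map4k4, at 155 and 161 CPM, was higher in both kinds of B cell than in neutrophil-gated barcodes, where it was at 68.6 CPM.

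Xist, which is made from the inactive X chromosome of female cells, was at 1444 CPM in the gated Ctrl B cells and 652 CPM in the cKO cells, or 844 CPM without the deepest of them. Ddx3y, Eif2s3y, Kdm5d and Uty, genes of the Y chromosome, had no UMI in either, which allows up to 3.04 CPM in the Ctrl cells and 31.5 CPM in the cKO cells.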
